A study of Sus scrofa with 6 samples.

Results

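The miR-199 and miR-214 group comprised 4 rows of the pig liver miRNA array, named ssc-miR-199a, ssc-miR-199a*, ssc-miR-199b* and ssc-miR-214 and written below without the prefix for pig. They were chosen by name and made up 4 of the 236 rows that carry the name of a pig miRNA. The samples were livers of newborn male piglets of 2 breeds, Large White (LW), a lean commercial breed, and Erhualian (EHL), a Chinese indigenous breed, and no treatment was applied to either. Each breed had 3 arrays, and each array held total RNA pooled from 2 littermates, so that 6 piglets of 3 litters stood behind a breed. Each pool was 1 litter of 1 breed, so the spread within a breed includes differences between litters. The study obtained the piglets from 2 neighbouring farms and does not say which breed came from which. A difference between farms therefore cannot be told apart from a difference between breeds. The deposited value was the fluorescence signal of a single dye, background-subtracted and normalized by LOWESS, a locally weighted regression that evens out signals between arrays.

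MicroRNAs are short RNAs that pair with messenger RNAs through the seed near their 5′ end and lower the output of those messages. A hairpin precursor can give a mature miRNA from each of its arms, and the older nomenclature marked the less abundant arm with a star. In mammals, miR-214 and a copy of miR-199a are made from a shared long noncoding transcript in the dynamin 3 gene, while miR-199b lies in the dynamin 1 gene. In the liver both are known mainly from hepatic stellate cells, the pericyte-like cells that store vitamin A and deposit collagen when activated, and their levels are known to rise in fibrosis. In the RefSeq gene table of the pig assembly Sscrofa11.1, MIR214 and MIR199A-1 are each other's nearest miRNA gene, with 0 other gene starts between them, and both lie within the span of DNM3. MIR199A-2 lies within DNM2 and MIR199B within DNM1. Mature sequences of these rows were not used here, so the arm that each probe detects is given only as far as the row name states it.

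All 4 rows had a signal on all 6 arrays. Another 2 rows of the miR-199 family were outside the group. The row miR-199a-3p, named for the 3′ arm, was listed on all 6 arrays and is used below for comparison. The row miR-199b had a signal of 15 on LW array 1 and was blank on the other 5 arrays. A blank cell gives no level. Signals are compared between arrays for the same row, and not between rows because each probe binds its target with its own efficiency.

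The miRNA miR-214, which is known to be carried in exosomes of stellate cells, had signals of 1793, 1830 and 1390 on LW arrays 1, 2 and 3. On EHL arrays 1, 2 and 3 its signals were 1426, 2581 and 1804. The highest value of all arrays was on EHL array 2, while the lowest EHL value lay within the LW range, so the breeds overlapped. The mean was 1671 ± 244 for LW and 1937 ± 589 for EHL (each SD over n = 3 arrays).

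The row miR-199a*, whose name does not tell MIR199A-1 (beside MIR214) from MIR199A-2, was listed at 1846, 1922 and 1700 on LW arrays 1, 2 and 3. On EHL arrays 1, 2 and 3 it was listed at 1403, 2103 and 1341. The LW arrays lay close together, and EHL array 2 stood above all of them while the other EHL arrays stood below. The mean was 1823 ± 113 in LW and 1616 ± 423 in EHL.

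The row miR-199b*, named for the precursor in the dynamin 1 gene, was listed at 963, 1185 and 928 on LW arrays 1, 2 and 3. Its signals on EHL arrays 1, 2 and 3 were 735, 907 and 477. The EHL arrays were all below the LW arrays, with EHL array 2 just under LW array 3 and EHL array 3 the lowest by a wide margin. The mean was 1025 ± 139 in LW and 706 ± 216 in EHL.

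The row miR-199a was dim, with signals of 44, 27 and 30 on LW arrays 1, 2 and 3. On EHL arrays 1, 2 and 3 the signals were 28, 32 and 38, inside the LW range. The mean was 33.7 ± 9.07 in LW and 32.7 ± 5.03 in EHL. These signals were between 2.00 and 3.45 times the lowest listed miRNA signal of the same array. For the other 3 rows, the signal was between 43.4 times and 192.2 times that lowest signal.

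**Figure D1:**
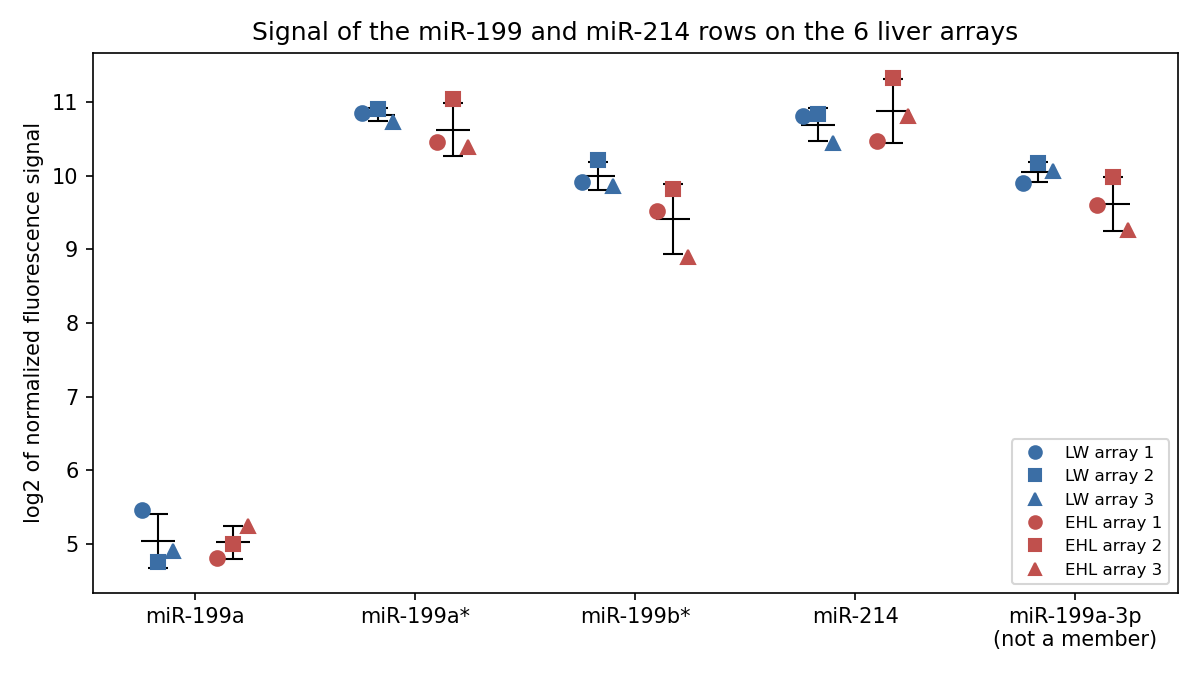
The vertical axis gives the log2 of the normalized fluorescence signal of each row on the 6 liver arrays, with LW in blue, EHL in red and 1 symbol for each array number, and the bars give the mean and SD of 3 arrays. The breeds overlap for miR-199a, miR-199a* and miR-214, all EHL arrays are below all LW arrays for miR-199b*, and heights of different rows are not comparable because the probes differ.

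The spread within a breed was larger in EHL for the 3 bright rows. On the log2 scale the SD of miR-199a* was 0.09 in LW and 0.36 in EHL, that of miR-199b* was 0.19 and 0.47, and that of miR-214 was 0.22 and 0.43. The dim row miR-199a went the other way, with 0.37 in LW and 0.22 in EHL. Over the 96 miRNA rows listed on all 6 arrays, the median SD was 0.27 in LW and 0.36 in EHL. In LW, 90 of these rows varied more than miR-199a*, which was thus among the steadiest rows of that breed, and in EHL 48 did. The EHL spread had the same outline in miR-199a* and miR-199b*, with array 2 highest and array 3 lowest, while miR-214 was lowest on array 1.

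To see whether the breeds differed, EHL was compared with LW by limma, a linear model that shares the estimate of spread across rows, for the 109 miRNA rows listed at least 2 times in each breed. Benjamini-Hochberg adjustment was made over all 109 rows, and a row was called at the false discovery rate of 15% that the study used for its arrays. None of the 4 rows was called, and 0 had an unadjusted p under 0.05. Of all rows tested, 1 was called, or 0.917%, and 13 had an unadjusted p under 0.05, or 11.9%. The SAM statistic, the method named in the study's methods and recomputed here, called 0 of the 4 as well and 10 of the 96 rows listed on all arrays. The study also listed 10 miRNAs by SAM, but not the same set. Its list held miR-15b and miR-221, which the recomputed SAM did not call.

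The log2 ratio of EHL to LW was -0.58 for miR-199b* (standard error 0.30, 95% interval from -1.26 to 0.10, limma adjusted p = 0.505). This corresponds to a signal 1.49-fold higher in LW, and the interval runs from an EHL signal of 0.419 of that in LW to one of 1.07. For miR-199a* the log2 ratio was -0.20 (standard error 0.27, interval from -0.81 to 0.40, limma adjusted p = 0.833). For miR-214 it was 0.18 (standard error 0.29, interval from -0.48 to 0.84, limma adjusted p = 0.833), and for miR-199a it was -0.02 (standard error 0.28, interval from -0.66 to 0.61, limma adjusted p = 0.974). Each interval held 0. The median log2 ratio was -0.11 over the 4 rows and 0.02 over all 109.

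With all splits of the arrays into 3 and 3 as the reference (exact permutation test, two-sided), p was 0.1 for miR-199b*, the smallest p this design allows, 0.4 for miR-199a*, 0.5 for miR-214 and 1 for miR-199a. The breeds did not overlap for 1 of the 4 rows, miR-199b*. Among the 96 rows listed on all 6 arrays the breeds did not overlap for 18, or 18.8%, and 7 of these, or 7.29%, were lower in EHL. The ratio of miR-199b* moved most with EHL array 3. Without that array the log2 ratio was -0.32 (limma adjusted p = 0.905), and without EHL array 2 it was -0.78 (limma adjusted p = 0.449). The direction of miR-214 rested on EHL array 2, without which its log2 ratio was -0.05 (limma adjusted p = 0.955). The sign for miR-199a is not settled, since it was 0.19 without LW array 1 (limma adjusted p = 0.957).

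**Figure D2:**
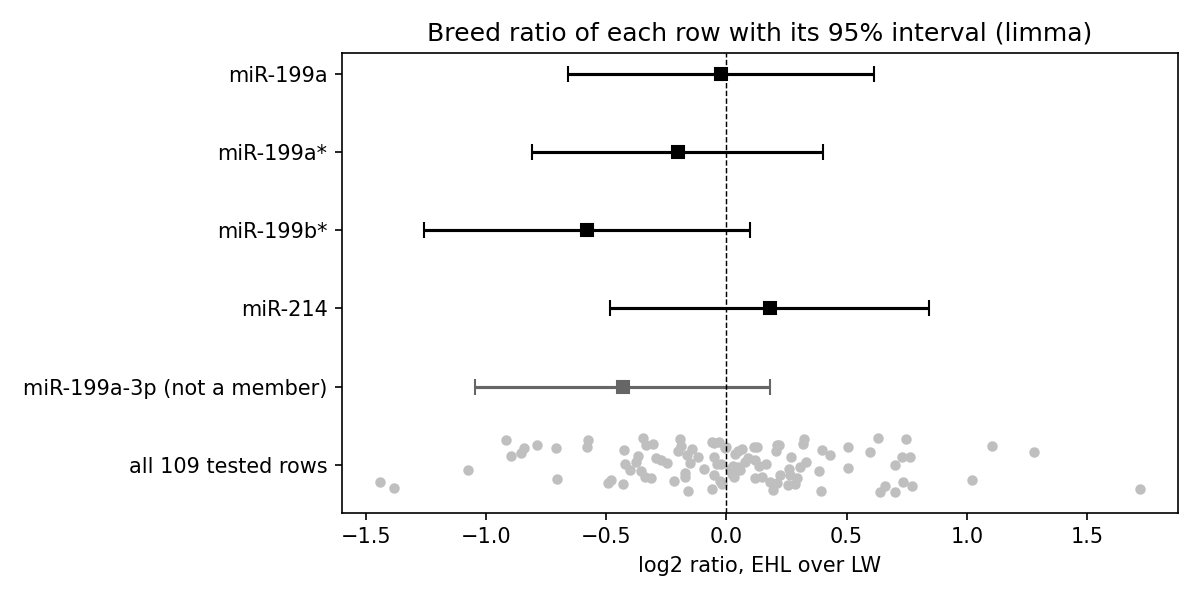
The horizontal axis gives the log2 ratio of EHL over LW from limma, with squares and bars for the ratio and 95% interval of each miR-199 or miR-214 row and grey points for all 109 tested rows, scattered vertically for legibility. All 5 intervals cross 0, and the ratios run from -0.58 for miR-199b* to 0.18 for miR-214.

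The related row miR-199a-3p had signals of 958, 1158 and 1070 on LW arrays 1, 2 and 3 and of 779, 1013 and 613 on EHL arrays 1, 2 and 3. Its log2 ratio was -0.43 (standard error 0.27, limma adjusted p = 0.593), and its breeds overlapped through EHL array 2. Its signal followed that of miR-199b* array by array. The log2 signal of miR-199b* minus that of miR-199a-3p lay between -0.36 and 0.03 on all 6 arrays, and Pearson's r between the rows was 0.97. The 3′ arms of miR-199a and miR-199b are known to be the same or nearly the same in mammals, so probes for them can share target RNA. The probe sequences were not examined here, and the signals of miR-199b* and miR-199a-3p cannot be taken as separate measurements of separate miRNAs. The row miR-199a*, whose name does not give the arm, had an r of 0.85 with miR-199a-3p. Whether it shares target RNA with either row was not examined.

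The arms and the miRNAs of the group were then compared within each array, where a shift of a whole array cancels. The size of such a difference depends on the probes, and only its change between arrays is read. For miR-199b* minus miR-214, the log2 difference was -0.90, -0.63 and -0.58 on LW arrays 1, 2 and 3. On EHL arrays 1, 2 and 3 it was -0.96, -1.51 and -1.92. All EHL values were below all LW values, though EHL array 1 was only just below LW array 1. The mean was -0.70 ± 0.17 in LW and -1.46 ± 0.48 in EHL, a shift of -0.76, or 1.69-fold.

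For miR-199a* minus miR-214, the difference was 0.04, 0.07 and 0.29 on LW arrays 1, 2 and 3. It was -0.02, -0.30 and -0.43 on EHL arrays 1, 2 and 3. Again the EHL arrays were all below the LW arrays, so miR-214 was higher relative to both starred rows in EHL. The mean was 0.13 ± 0.14 in LW and -0.25 ± 0.21 in EHL, a shift of -0.38, or 1.30-fold. For both pairs the exact permutation p was 0.1, the smallest possible, and 0.3 after adjustment over the 6 pairs compared, so neither difference passed a threshold of 0.05. Against the comparison row miR-199a-3p, outside these 6 pairs, the breeds overlapped. There miR-214 minus miR-199a-3p was 0.65 ± 0.26 in LW and 1.26 ± 0.35 in EHL (exact permutation p = 0.2). The breeds did not overlap for 2 of the 6 pairs, or 33.3%. Among all 4560 pairs of rows listed on all arrays they did not overlap for 19%. The pairs share rows and are not independent of each other.

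The other 4 pairs overlapped between the breeds. For miR-199a* minus miR-199b*, the difference was 0.84 ± 0.12 in LW and 1.21 ± 0.28 in EHL (exact permutation p = 0.2, adjusted p = 0.4). Here LW array 1 at 0.94 lay above EHL array 1 at 0.93. The difference between the rows miR-199a and miR-199a* had a mean of -5.79 ± 0.38 in LW and -5.61 ± 0.45 in EHL (exact permutation p = 0.6). The differences of miR-199a from miR-199b* and from miR-214 had an exact permutation p of 0.4 and 0.5. Pairs with the dim row miR-199a had the larger spread in LW, with SDs between 0.38 and 0.50 against 0.12 to 0.17 for the other pairs.

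**Figure D3:**
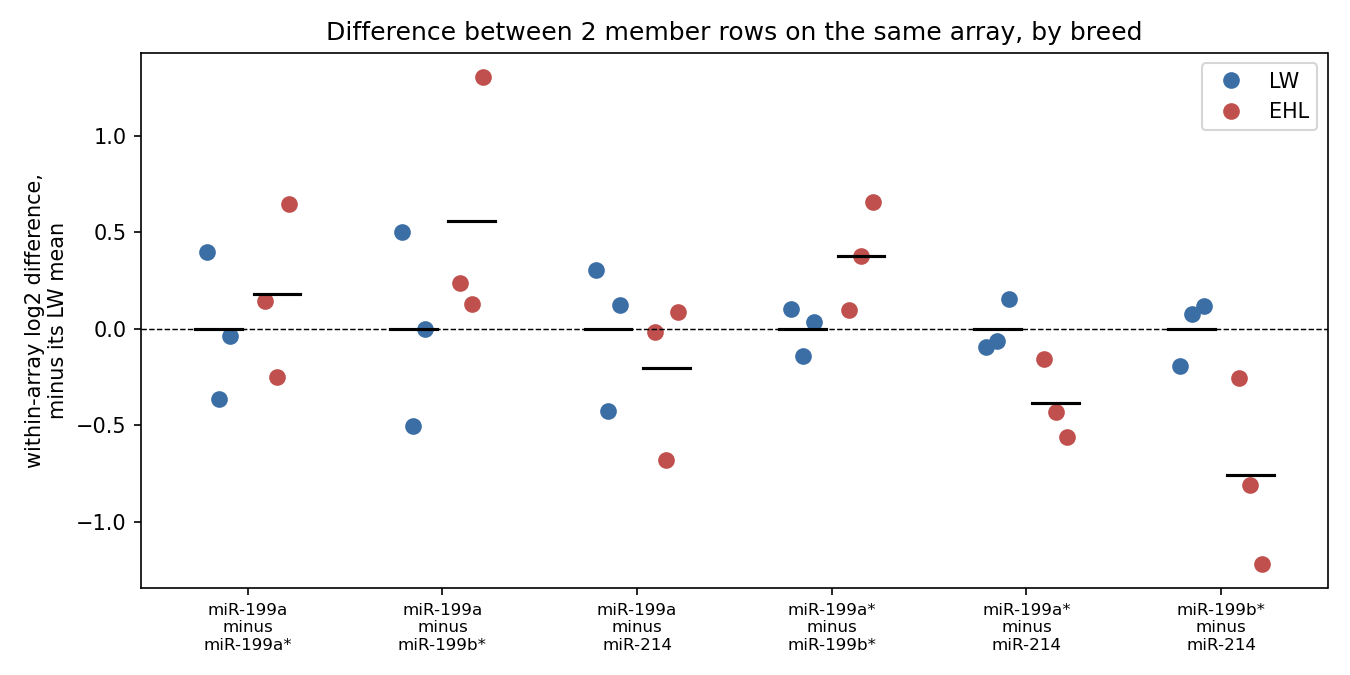
The vertical axis gives the difference in log2 signal between 2 rows on the same array, minus the mean of that difference over the LW arrays, with LW in blue, EHL in red and short lines for the means of 3 arrays. The breeds do not overlap for miR-199a* minus miR-214 and for miR-199b* minus miR-214, where the EHL means lie 0.38 and 0.76 below the LW means.

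Agreement across the 6 arrays was measured for the same 6 pairs by Pearson's r and Spearman's rho of the log2 signals, with exact permutation p-values over the 720 orders of the arrays. For miR-199a* and miR-199b*, r was 0.82 (exact permutation p = 0.0278, adjusted p = 0.167) and rho was 0.66 (exact permutation p = 0.175, adjusted p = 0.725). Without EHL arrays 1 and 3, the arrays farthest from the median of miR-199a*, r was 0.04. Those arrays hold the 2 lowest signals of miR-199a*, and the relation rested on them. For miR-199a* and miR-214, r was 0.61 (exact permutation p = 0.19, adjusted p = 0.571) and rho was 0.60 (exact permutation p = 0.242, adjusted p = 0.725). Without the same 2 arrays it was 0.99. For miR-199b* and miR-214, r was 0.10 (exact permutation p = 0.86, adjusted p = 0.929) and rho was 0.09 (exact permutation p = 0.919, adjusted p = 1), and r was 0.37 without LW array 2 and EHL array 3.

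The dim row miR-199a followed none of the others. Its r was -0.06 with miR-199a* (exact permutation p = 0.929), -0.34 with miR-199b* (exact permutation p = 0.525) and 0.22 with miR-214 (exact permutation p = 0.679). Its rho was -0.14 with miR-199a* (exact permutation p = 0.803), -0.26 with miR-199b* (exact permutation p = 0.658) and 0.03 with miR-214 (exact permutation p = 1). After adjustment these 3 values of r had a p of 0.929 and those of rho a p of 1. Without LW array 1 and EHL array 3, r was 0.45, -0.26 and 0.53, in the same order. None of the 6 pairs passed 0.05 after adjustment. Over all 4560 pairs of rows listed on all arrays, the median r was -0.01 and the quartiles were -0.41 and 0.45, so 2 of the 6 pairs lay above the upper quartile. With few arrays, single values of r range widely between any rows. With each array taken as its deviation from the breed mean, given without a test since such deviations sum to 0 within a breed, r was 0.80 for miR-199a* and miR-199b*, 0.87 for miR-199a* and miR-214 and 0.47 for miR-199b* and miR-214, and for miR-199a it was -0.08 with miR-199a*, -0.52 with miR-199b* and 0.25 with miR-214. With quantile normalization, r of miR-199a* and miR-214 was 0.37, below the upper quartile of all pairs as listed.

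**Figure D4:**
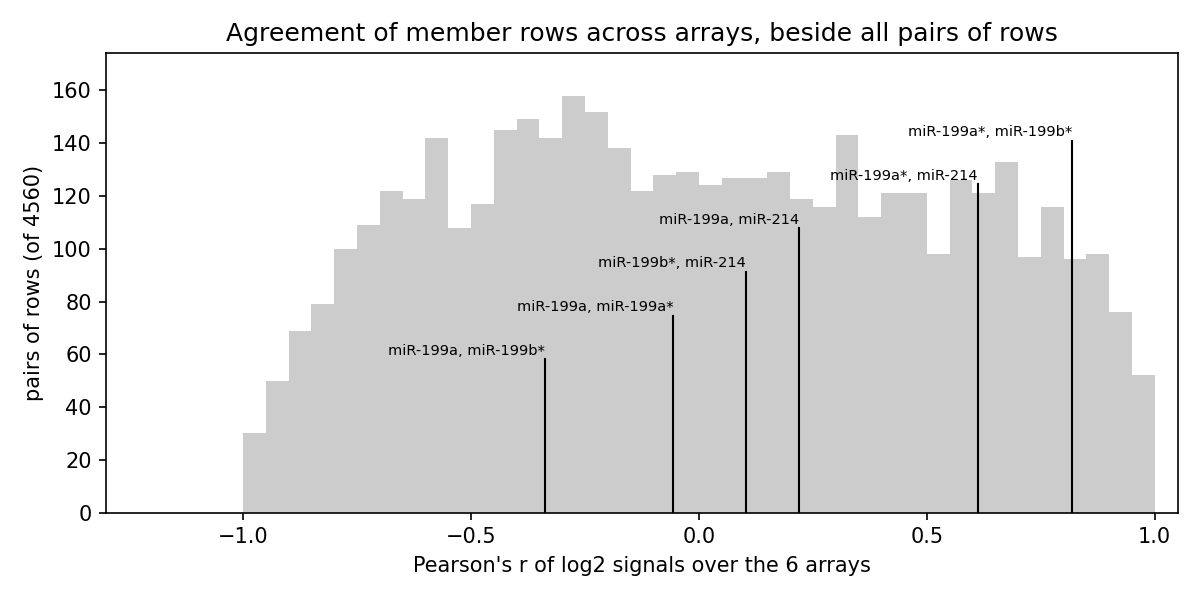
The grey histogram gives Pearson's r of log2 signals over the 6 arrays for all 4560 pairs of rows listed on every array, and the vertical lines mark the 6 pairs of the group, drawn at different heights for legibility. The pairs run from -0.34 for miR-199a and miR-199b* to 0.82 for miR-199a* and miR-199b*, within the spread of all pairs.

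Among the 92 other rows listed on all arrays, those with the highest r to the mean log2 signal of the 4 rows were miR-222 (0.79), miR-199a-3p (0.71), miR-424* (0.62), miR-574 (0.61) and miR-145 (0.57). These values describe 6 arrays that share their normalization, and no test was made. Taken for each row on its own, a comparison chosen after the values had been seen, the most similar row was miR-199a-3p for both miR-199a* (0.85) and miR-199b* (0.97), miR-320 for miR-214 (0.89) and miR-181b for miR-199a (0.94).

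The other miRNAs known from stellate cells or liver fibrosis had 35 rows on the array under 29 of the 31 names listed, of which 24 were tested and 4 were blank on every array. None of the 24 was called by limma, and 3, or 12.5%, had an unadjusted p under 0.05, near the 11.9% of all rows tested. Their median log2 ratio was -0.15, with 7 above 0 and 17 below 0, against 0.02 over all 109 rows, with 56 above 0 and 53 below 0. The list mixes miRNAs of different known roles, and some, such as miR-122, miR-143 and miR-145, also serve as cell type markers below. A shared sign over it therefore has no single reading. The breeds did not overlap for 5 of the 21 listed on all 6 arrays, or 23.8%, against 18.8% of all rows so listed. The rows miR-27a, known to act on fat storage in stellate cells, and miR-221, known to rise in activated stellate cells, had log2 ratios of -0.85 and -0.79 (limma adjusted p = 0.244 and 0.291). The row miR-130b had a log2 ratio of 0.70 (limma adjusted p = 0.291). The study's own SAM on these arrays listed miR-15b, miR-27a and miR-221 as lower and miR-130b as higher in EHL. By RT-qPCR the study found miR-130b higher and miR-15b lower. For miR-27a and miR-221 its RT-qPCR gave no significant difference, and miR-221 had the opposite sign. The study's sequencing, pooled within each breed, had the sign of its SAM for miR-130b and miR-221 and the opposite sign for miR-27a. By fold change, that sequencing listed miR-222 and miR-21* as lower and miR-133a, miR-335 and miR-335* as higher in EHL. RT-qPCR in the study also found miR-222 lower and miR-133a higher. The row miR-29a, known to lower collagen messages, had a log2 ratio of -0.00450 (limma adjusted p = 0.991). The row miR-21, known to rise in fibrosis, varied from 22 to 347 over the arrays, and its log2 ratio of -0.84 had a standard error of 0.97 (limma adjusted p = 0.807). Without EHL array 1, limma called 3 of 21 rows of this list, or 14.3%, beside 24.7% of all rows then tested. With all arrays the SAM recomputed here called 2 of 21, miR-27a and miR-130b, or 9.52%, beside 10.4% of all rows. These shares were near or below those of all rows and are no result about the list.

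Bulk liver RNA does not show which cells a signal came from, and fewer cells of a type cannot be told apart from less RNA per cell. No row measured a stellate-cell protein or message, so the cell type given to the group comes from background knowledge and was not checked here. The rows of miR-143 and miR-145, known from smooth muscle and pericytes, had a summed signal between 846 and 1270 in LW and between 868 and 1344 in EHL. Of these, miR-143-3p was listed at 306, 264 and 212 in LW and at 308, 398 and 484 in EHL, with a log2 ratio of 0.60 (limma adjusted p = 0.443), and miR-145 had 0.08 (limma adjusted p = 0.974). The hepatocyte rows miR-122, miR-192 and miR-148a summed to between 24963 and 33001 in LW and between 24137 and 28497 in EHL. Such a sum adds probes of unequal efficiency and follows the brightest row, here miR-122, while miR-148a ran from 669 to 2256, both on EHL arrays. The endothelial row miR-126 was between 2209 and 4098 in LW and between 3110 and 4524 in EHL, and miR-126* was blank. The erythroid rows miR-451 and miR-486 summed to between 124 and 249 in LW and between 78 and 410 in EHL, the highest on EHL array 1. Of the leukocyte markers, miR-155 was blank on all arrays and miR-142 was listed once, at 12. Of the 7 rows of muscle miRNAs, 6 were blank on every array and 3 arrays gave a signal of 14 to 17 for miR-133a-3p. Blank cells do not show absence. The study's sequencing of liver RNA pooled within each breed detected miR-155 and miR-133a, and listed both as higher in EHL by fold change. The listed epithelial and biliary names had no row. The part of these cell types in the ratios of the miR-199 and miR-214 rows was not tested.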

How the data were processed

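The authors hybridized liver small RNA to a pig miRNA array of LC Sciences built on miRBase release 16, with a Cy5 tag. They subtracted the background, normalized by LOWESS and deposited 1 linear intensity per row and array, with blank cells. No threshold for a blank was found in the sources used here. The study ascribes undetected miRNAs to low fluorescence. It proposes that sequence mismatches between probe and pig miRNA, as well as low copy number, may lie behind this. The table held 236 rows with a miRNA name and 100 rows with an LRS label, which were not used except in an alternative. Intensities were converted to log2 and compared in R 4.3.3 with limma 3.58.1, with breed as the only term. A row entered the test if it was listed at least 2 times in each breed. SAM was recomputed with 20 relabellings of the arrays on rows listed on all 6. Both methods were tested on simulated data. Exact tests and correlations used scipy 1.17.1, pandas 2.3.3 and numpy 2.4.6 in Python 3.11.15, and figures matplotlib 3.10.9. The miRNAs named were the 4 rows, 2 lists of fibrosis and cell type miRNAs, and the 5 rows most like the mean of the 4. The rows miR-199b and miR-320 were named after their values had been seen. The rows and lists were chosen with earlier results of these data known. The p-values measure the spread between litter pools, and the number of arrays limits the precision. Alternatives were SAM, a replicate block, median centring, quantile normalization, filters, a trended and robust fit, array weights, linear means, filled blanks, the LRS rows and each array left out in turn.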

Additional observations from a re-analysis of the deposited data

How the results depend on the processing

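None of the 4 rows was called by limma or SAM under any of the 17 alternatives with a test. The log2 ratio of miR-199b* stayed below 0 in all 18 alternatives, from -0.78 to -0.32 when single arrays were left out, and so did that of miR-199a*, from -0.41 to -0.08. The log2 ratio of miR-199a was 0.0582 with array weights and ran from -0.16 to 0.19 with each array left out, and that of miR-214 ran from -0.0482 to 0.38. Quantile normalization moved the median log2 ratio of all 109 rows by -0.29, to -0.26. Relative to that median, miR-199b* was at -0.47 and miR-214 at 0.32, against -0.60 and 0.16 as listed. With each array left out, the breed shift in miR-199a minus miR-199a* ran from -0.0530 to 0.40 and that in miR-199a minus miR-214 from -0.42 to 0.0354. The shifts in miR-199b* minus miR-214, from -1.01 to -0.53, and in miR-199a* minus miR-214, from -0.50 to -0.29, kept their sign. Pearson's r of miR-199a and miR-199a* was 0.30 with quantile normalization, and that of miR-199a* and miR-214 was 0.37, against 0.61 as listed. The cause of these sign changes was not tested beyond the arrays left out. The number of all rows called was 1 by limma, 10 by SAM, 7 with array weights, 2 with the LRS rows and 0 with quantile normalization, and it ran from 0 to 24 with each array left out, the highest without EHL array 1. Rows of the stellate and fibrosis list called were 0 by limma, 2 by SAM, 1 with array weights and 3 without EHL array 1. With the replicate block, 0 rows were called, and the log2 ratio of miR-199b* was -0.58 (limma adjusted p = 0.827). The deviations of same-numbered arrays from their breed means had an r of -0.50, -0.01 and -0.66, so the number was not taken as a pairing. The dim signal limits what can be read from miR-199a, at 2.00 to 3.45 times the lowest listed miRNA signal of the same array.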
